A study of Mus musculus with 2 samples.

Results

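The variable alpha and gamma protocadherins were followed by single-cell RNA sequencing in a control and a Setdb1_cKO library of the postnatal day 5 mouse dentate gyrus, the hippocampal region whose granule neurons arise from radial glia through intermediate progenitors and neuroblasts. Every gene row whose symbol is Pcdha, Pcdhga or Pcdhgb followed by a number was taken, which left out the C-type isoforms and gave 30 of 32285 genes, namely 12 alpha rows, 12 gamma A rows and 6 gamma B rows. The control library was labelled wild type and the other Setdb1_cKO, a conditional knockout of Setdb1, which encodes a histone H3K9 methyltransferase. The labels name neither the Cre driver and the allele nor the sex, strain and number of animals behind each library. With 1 library per genotype no test between genotypes exists, every ratio compares these libraries, and all intervals are 95% and cover counting error only.

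Clustered protocadherins are transmembrane adhesion proteins that pair with the same isoform on a neighbouring cell. In the alpha and gamma clusters each variable exon carries its own promoter, and its transcript is spliced to constant exons that all isoforms of that cluster share. A neuron is known to draw a small, largely random subset of variable promoters from each cluster, while C-type isoforms are expressed more uniformly. The resulting isoform combination is known for self-recognition of a neuron's own branches, and gamma isoforms also for neuron survival. CTCF and cohesin, which loop an enhancer to the chosen promoter, and DNA methylation of the promoters that are not chosen are textbook parts of this choice, and SETDB1 is known to shape chromatin folding of the locus.

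The members lie on mouse chromosome 18 (mm10, forward strand). The alpha rows run from Pcdha1, starting at 36930184, to the shared end at 37187661, and the gamma rows from Pcdhga1, starting at 37661793, to 37841873. Each member has between 1570 and 4675 exonic bases of its own and between 2116 and 3157 shared with other members, mostly at its 3' end. Pcdhga4 and Pcdhga8 also share part of the variable first exon. They have 1570 and 2503 own bases, against first exons of 2608 and 2611 bases. A pair of alpha rows carries the symbol Pcdha11, ENSMUSG00000007440 starting at 37005203 and ENSMUSG00000102206 starting at 37010712, and these are given here as the first and the second Pcdha11 row. A 3' assay reads mainly the shared end, where a read cannot be assigned to 1 member, so the unique molecular identifiers (UMIs) counted to a member are a small and unmeasured fraction of its transcripts. The sources used here do not say whether intronic reads were counted. Over both libraries the members held 24807 UMIs in kept cells, 6103 in control and 18704 in Setdb1_cKO, from 79 for Pcdha8 to 3549 for Pcdhga7. Per kilobase of own exonic bases the totals ran from 31.9 UMIs for Pcdha8 to 683 for Pcdhga10, 703 for Pcdhga11, 743 for Pcdhga12 and 1146 for Pcdhga7, with Pcdhga1 and Pcdhga4 at 78.5 and 79.6, within the range of the alpha rows.

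After filtering, 10790 control cells (median 5924 UMIs) and 9350 Setdb1_cKO cells (median 6977) were kept. The libraries shared 68 barcodes, 39 of them in kept cells of both. A cell stood in a class when at least 3 of the 8 markers of that class had a UMI and no other class had as many. This gate took 4824 control and 5129 Setdb1_cKO cells as neuroblasts, 3384 and 2214 as radial glia or astrocytes, 401 and 186 as intermediate progenitors, 426 and 388 as Cajal-Retzius cells, 315 and 178 as oligodendrocyte progenitors, 121 and 66 as endothelial cells, 201 and 191 as fibroblasts, and 268 and 285 as microglia or macrophages. The neuroblast gate is broad: 0.974% of its control cells and 4.15% of its Setdb1_cKO cells also had at least 3 granule neuron markers, and 8.79% and 18.3% at least 3 pyramidal or mossy neuron markers. Of the intermediate progenitors, 97.3% and 96.2% also had at least 3 neuroblast markers. Counts were scaled to CPM, the UMIs of a gene per 1e6 UMIs of the class or library. Setdb1 had 3102 UMIs (42.8 CPM) in the control library and 1554 (20.4 CPM) in the other, a ratio of 0.477 (0.448 to 0.507), and the labels do not say whether its counted 3' end lies in the deleted part. Between control and Setdb1_cKO, Xist stood at 0.221 against 1231 CPM and Ddx3y at 4169 against 0 UMIs, so genotype and sex cannot be told apart.

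In neuroblasts both families were at about 3-fold higher levels in the Setdb1_cKO library. The 12 alpha rows summed to 555 UMIs (19.0 CPM) in control and 2377 (57.2 CPM) in Setdb1_cKO, a ratio of 3.01 (2.75 to 3.31). The 18 gamma rows summed to 2333 UMIs (79.7 CPM) and 11054 (266 CPM), a ratio of 3.33 (3.19 to 3.49). Gamma A and gamma B had ratios of 3.36 (3.20 to 3.53) and 3.21 (2.89 to 3.58). The alpha share of the summed UMIs was 19.2% (17.8 to 20.7) in control and 17.7% (17.1 to 18.4) in Setdb1_cKO, so the families kept nearly the same proportion. The variable beta protocadherins, the single-exon genes between these clusters, were at 123 and 206 CPM, a smaller ratio of 1.68 (1.61 to 1.74). The sum of the 5 C-type isoforms was lower, at 35.7 and 15.5 CPM (0.433, 0.392 to 0.479). Most of that drop lay in Pcdhgc3, given below. By the call rule stated below, Pcdhac2 was lower too, and Pcdhgc4 and Pcdhgc5 were neither higher nor lower.

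The other neural classes differed in which family was higher. Radial glia or astrocytes had almost no alpha in control, 19 UMIs (0.828 CPM), against 95 (5.37 CPM) in Setdb1_cKO, a ratio of 6.48 (3.93 to 11.2) that still left the class below the control neuroblasts. Microglia or macrophages, taken as the background for UMIs from free RNA, stood at similar alpha levels, 1 UMI (0.682 CPM) and 11 UMIs (5.81 CPM, ratio 8.52, 1.24 to 367). Without thinning, 0.502% and 3.93% of glia and 0.373% and 2.11% of microglia or macrophages had an alpha UMI, at medians of 6389 and 7568 against 5266 and 6174 UMIs per cell. The Setdb1_cKO background rested on few cells, and 1 of them held 4 alpha members. It was also uneven between the clusters described below. Those led by Spp1, Pf4 and S100a9 held 2, 0 and 5 alpha UMIs in Setdb1_cKO (1.45, 0 and 18.9 CPM). The glial clusters led by Glycam1 and Wnt8b stood at 4.52 and 13.0 CPM. Whether alpha in glia lies above background was thus not resolved, and it is not read as such in either library. Their gamma level was as high as that of neuroblasts in control, 82.2 CPM, and reached 154 CPM in Setdb1_cKO, a ratio of 1.88 (1.77 to 1.99) whose interval does not overlap that of neuroblasts. Alpha made up 0.998% (0.602 to 1.55) of the summed member UMIs of glia in control and 3.36% (2.73 to 4.09) in Setdb1_cKO. Intermediate progenitors, the dividing cells between radial glia and neuroblasts, had the highest gamma ratio of the 8 classes, from 49.2 to 208 CPM (4.23, 3.52 to 5.11), and 11 against 15 alpha UMIs (2.52, 1.08 to 6.06).

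Cajal-Retzius cells, early-born reelin neurons that settle in the marginal zone, had the highest control alpha level of the 8 classes, 24.4 CPM, and 32.8 CPM in Setdb1_cKO (1.35, 0.999 to 1.82), a difference within counting error. Their gamma level went from 65.4 to 139.5 CPM (2.13, 1.81 to 2.52). In oligodendrocyte progenitors alpha was at 16.7 and 13.8 CPM (0.827, 0.386 to 1.69) and gamma at 105 and 159 CPM (1.52, 1.20 to 1.91). Gamma was at 32.3 and 55.5 CPM in endothelial cells (1.72, 1.06 to 2.76), at 68.5 and 55.3 CPM in fibroblasts (0.808, 0.601 to 1.09) and at 13.0 and 19.5 CPM in microglia or macrophages (1.51, 0.845 to 2.78). Alpha held 3 and 6 UMIs in endothelial cells (4.02, 0.859 to 24.9) and 1 and 6 in fibroblasts (5.33, 0.647 to 245), too few to order these classes. The gamma values of endothelial cells and microglia or macrophages depended on the choice of cells. The endothelial ratio was 1.60 (0.998 to 2.54) with a looser cell filter and 1.14 (0.897 to 1.44) with classes from clusters, and the microglial one 2.29 (1.60 to 3.33) with doublets kept and 1.84 (1.06 to 3.33) with clusters.

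**Figure D1:**
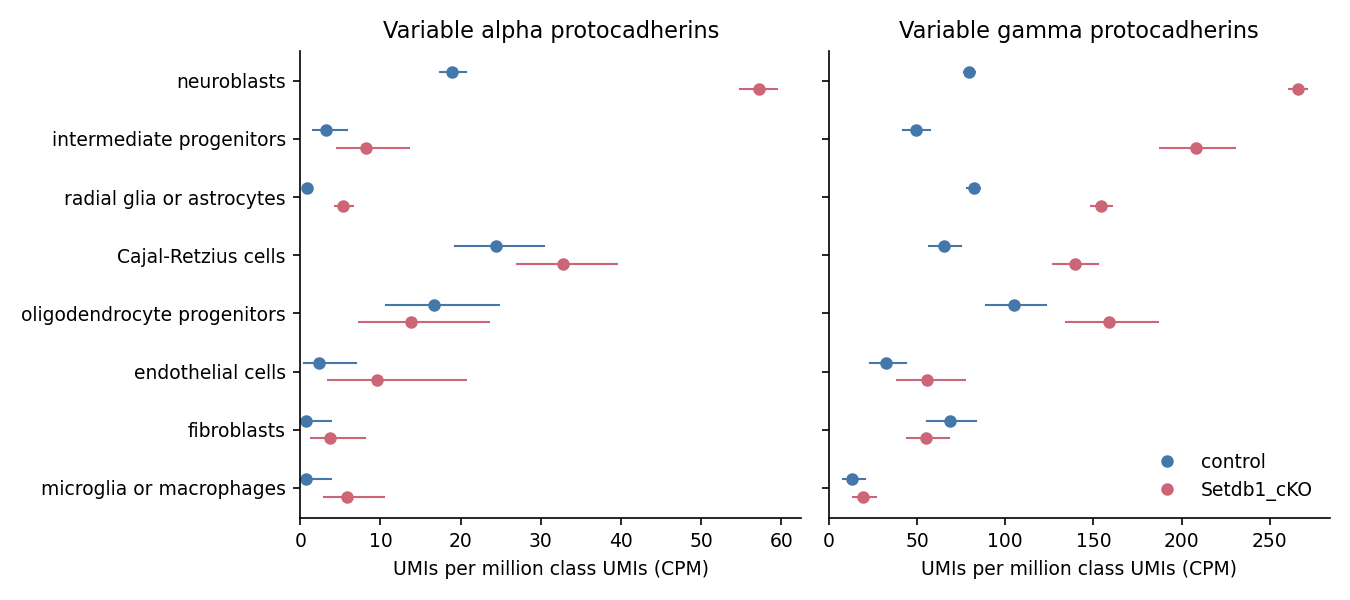
Summed level of the variable alpha (left) and gamma (right) protocadherins in 8 marker-gated classes, in CPM, with exact 95% Poisson intervals for counting error; 1 point per library. Control gamma levels of neuroblasts (79.7 CPM) and glia (82.2 CPM) lie close together while alpha differs (19.0 against 0.828 CPM). For gamma the widest gaps between libraries are those of neuroblasts and intermediate progenitors, and for alpha that of neuroblasts.

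The Setdb1 ratio differed between classes. It was 0.351 (0.308 to 0.399) in radial glia or astrocytes, 0.356 (0.253 to 0.493) in Cajal-Retzius cells, 0.474 (0.433 to 0.518) in neuroblasts and 0.568 (0.395 to 0.801) in intermediate progenitors. Its interval held 1 in oligodendrocyte progenitors (0.991), endothelial cells (0.934), fibroblasts (1.08) and microglia or macrophages (0.879). The 4 classes with a lower Setdb1 level had gamma ratios between 1.88 and 4.23, and the other 4 had gamma ratios between 0.808 and 1.72. These groups are not separated beyond counting error. The gamma intervals of oligodendrocyte progenitors (1.20 to 1.91) and endothelial cells (1.06 to 2.76) overlap that of glia (1.77 to 1.99). Within the former 4, glia had the lowest Setdb1 ratio and the lowest gamma ratio, and intermediate progenitors the highest of both. The Setdb1 order at both ends is not resolved. Its intervals overlap between glia and Cajal-Retzius cells, and between intermediate progenitors and neuroblasts. The gamma intervals of glia and Cajal-Retzius cells overlap too. The alpha ratios were 1.35 to 6.48 in the former 4, and 0.827, 4.02, 5.33 and 8.52 in the latter, most of these on few UMIs. A link between the Setdb1 level and either family was not tested.

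Member by member, a row was measured in a class when both libraries together held at least 30 UMIs, and it was called higher or lower when the ratio reached 1.5-fold in that direction and the interval did not hold 1. In neuroblasts all 30 rows were measured, 26 were called higher and 0 lower. Of 14749 measured genes in this class 9.5% were called higher and 7.49% lower. The median log2 ratio of the members was 1.68, beside -0.07 for all measured genes. The 4 rows called neither way were Pcdha12, the last variable alpha row, and Pcdhga1, Pcdhga6 and Pcdhgb6.

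Among the alpha rows the first Pcdha11 row had the largest ratio of all members. It held 19 UMIs (0.649 CPM) in control neuroblasts and 404 (9.72 CPM) in Setdb1_cKO, a ratio of 15.0 (9.46 to 25.1), and so went from the third lowest alpha row by UMIs to the second highest. The second Pcdha11 row, which has 4675 own exonic bases against 2499 of the first, held the most alpha UMIs in both libraries, with 146 (4.99 CPM) and 509 UMIs (12.2 CPM) and a ratio of 2.45 (2.04 to 2.97). Pcdha1 and Pcdha8, the alpha rows with the fewest UMIs in control, held 8 and 9 UMIs there and 78 and 59 in Setdb1_cKO, ratios of 6.86 (3.32 to 16.5) and 4.61 (2.27 to 10.6). Pcdha4, Pcdha5 and Pcdha9 were at 2.15, 2.56 and 2.73 CPM in control and at 5.70, 7.26 and 7.55 CPM in Setdb1_cKO. Their ratios lay close together, at 2.65, 2.83 and 2.76. Pcdha2, Pcdha3, Pcdha6 and Pcdha7 had ratios from 1.81 to 3.42. Pcdha12, at 2.09 and 2.77 CPM, had a ratio of 1.33 (0.964 to 1.84).

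Among the gamma rows Pcdhga7 and Pcdhga12 held the most UMIs in both libraries. Pcdhga7 was at 386 UMIs (13.2 CPM) in control and 2190 (52.7 CPM) in Setdb1_cKO, a ratio of 3.99 (3.58 to 4.46). Pcdhga12, the last gamma A row, was at 316 UMIs (10.8 CPM) and 1754 (42.2 CPM), a ratio of 3.91 (3.46 to 4.42). Pcdhga10 and Pcdhga11 came next in the Setdb1_cKO library. Pcdhga10 was at 4.51 and 22.9 CPM (5.06, 4.22 to 6.12) and Pcdhga11 at 7.28 and 24.9 CPM (3.43, 2.95 to 3.99). The largest gamma ratio was that of Pcdhgb5, at 2.53 and 13.4 CPM (5.30, 4.15 to 6.85), followed by Pcdhga10 and Pcdhga3 (3.79 and 18.2 CPM, 4.80, 3.93 to 5.91).

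Some gamma rows stood close to 1 beside neighbours that did not. Pcdhga1, the first gamma row, was at 1.91 and 1.95 CPM (1.02, 0.715 to 1.46), whereas the adjacent Pcdhga2 was at 1.74 and 5.70 CPM (3.27, 2.41 to 4.52). Pcdhga5 and Pcdhga6, which follow one another, had ratios of 1.53 (1.31 to 1.78) and 1.31 (1.07 to 1.61), and the next row is Pcdhga7 at 3.99. Pcdhgb6 was at 3.55 and 4.84 CPM (1.36, 1.07 to 1.74) between Pcdhga9 at 4.16 and Pcdhga10 at 5.06. Ratios of adjacent rows therefore differed beyond counting error in both directions along the gamma cluster.

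**Figure D2:**
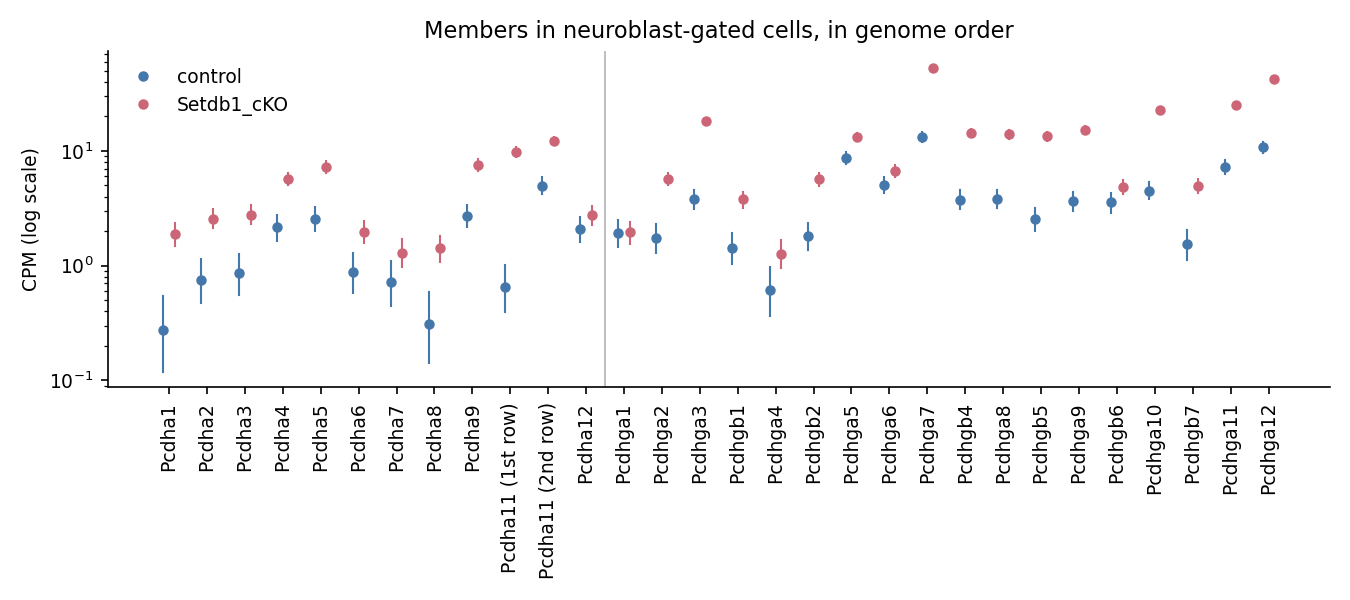
Level of the 30 rows in neuroblast-gated cells in genome order (alpha left of the line, gamma right), in CPM on a log axis, with exact 95% Poisson intervals; 1 point per library. The first Pcdha11 row moves from 0.649 to 9.72 CPM, while Pcdhga1 is at 1.91 and 1.95 CPM.

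In radial glia or astrocytes 19 rows were measured, 12 were called higher and 0 lower, beside 5.75% and 4.26% of 14031 measured genes. The median log2 ratio of those 19 rows was 1.13, against -0.03 for all measured genes. The second Pcdha11 row was the one alpha row measured, with 7 UMIs (0.305 CPM) in control and 23 (1.30 CPM) in Setdb1_cKO (4.26, 1.77 to 11.8). It reached the threshold mainly through the Setdb1_cKO library. Below the threshold of 30 UMIs, Pcdha4 held 1 and 17 UMIs, Pcdha9 held 1 and 12 and Pcdha5 held 0 and 11. In microglia or macrophages Pcdha4 held 0 UMIs in both libraries and Pcdha5 held 1 in each. The background is too sparse there to be set against single rows. Among the gamma rows Pcdhga2 had the largest ratio, from 32 UMIs (1.39 CPM) to 133 (7.51 CPM), 5.39 (3.64 to 8.19). Pcdhga12 was at 11.4 and 34.2 CPM (3.01, 2.60 to 3.49) and Pcdhgb5 at 4.84 and 15.6 CPM (3.22, 2.58 to 4.05).

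The glial and neuroblast ratios separated for several gamma rows. Pcdhga8 was at 3.57 and 4.12 CPM in glia (1.15, 0.830 to 1.60) and at 3.83 and 13.9 CPM in neuroblasts (3.64, 2.97 to 4.49). Pcdhga11 was at 9.15 and 10.0 CPM in glia (1.09, 0.889 to 1.34), against its ratio of 3.43 in neuroblasts. Pcdhgb7 was at 2.27 and 1.75 CPM in glia (0.773, 0.479 to 1.23) and at 1.54 and 4.93 CPM in neuroblasts (3.21, 2.31 to 4.53). For each of these 3 rows the intervals of the 2 classes do not overlap, which is also so for Pcdhga3, Pcdhga7, Pcdhgb5, Pcdhga9, Pcdhgb6 and Pcdhga10. Pcdhga1 and Pcdhga6 had intervals that held 1, or a ratio under 1.5, in both classes, at 1.10 and 1.12 in glia. Pcdhga5, the gamma row with the most UMIs in control glia after Pcdhga12 and Pcdhga7, was at 10.3 and 12.0 CPM (1.16, 0.963 to 1.41).

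**Figure D3:**
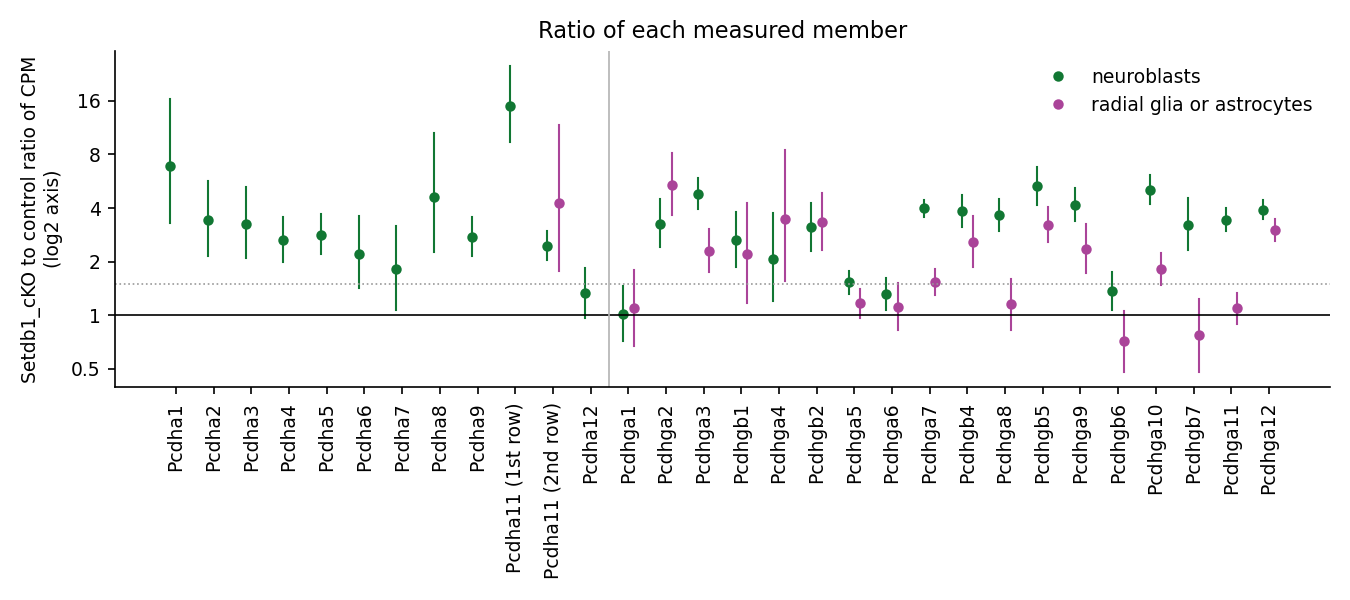
Setdb1_cKO to control ratio of each row with at least 30 UMIs in the class, in genome order on a log2 axis, with exact 95% conditional Poisson intervals; the solid line is 1 and the dotted line 1.5. Rows such as Pcdhga8 (3.64 in neuroblasts, 1.15 in glia) and Pcdhga11 (3.43 and 1.09) separate the classes, and Pcdhga1 lies near 1 in both.

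In intermediate progenitors all 10 measured rows, all of them gamma, were called higher (4.24% of 9657 measured genes were called higher and 4.76% lower). No row had more control UMIs than Pcdhga12, at 25, so all 10 passed the threshold only with their Setdb1_cKO UMIs. The share called higher is thus partly set by that threshold. At a threshold of 10 UMIs, 13 of 15 measured rows were called higher and 0 lower, without a share of all genes. Pcdhga12 was at 25 UMIs (7.41 CPM) and 62 (33.9 CPM), 4.58 (2.83 to 7.60), and Pcdhgb5, Pcdhga9 and Pcdhga10 had ratios of 8.61, 8.30 and 7.99. Pcdhgb6 and Pcdhga5, at 1.36 and 1.53 in neuroblasts, were at 2.41 (1.10 to 5.40) and 5.17 (2.44 to 11.9) here. The intervals of these rows are wide, so their order is not resolved.

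In Cajal-Retzius cells 6 of 10 measured rows were called higher and 0 lower (3.57% and 2.64% of 10354 measured genes). With at least 10 UMIs, 10 of 23 measured rows were called higher, and no share of all genes is given at that threshold. Pcdhgb2 was at 2 and 29 UMIs, 13.6 (3.44 to 118), and so passed the threshold mainly through the Setdb1_cKO library. Pcdhga8 was at 18 UMIs (5.63 CPM) and 84 (24.6 CPM), 4.37 (2.61 to 7.73), and stood beside Pcdhga7, with 79 UMIs, at the top of this class in Setdb1_cKO. The control library had led with Pcdhga5, which was at 42 and 30 UMIs (0.669, 0.405 to 1.10). In oligodendrocyte progenitors 2 of 3 measured rows were called higher (2.3% of 8758 genes were called higher and 2.74% lower). These were Pcdhga5 at 8 and 32 UMIs (6.11, 2.76 to 15.3) and Pcdhga12 at 16 and 22 (2.10, 1.05 to 4.28). Both had fewer than 30 UMIs in control and passed the threshold only with their Setdb1_cKO UMIs. Pcdhga5 thus had ratios between 0.669 and 6.11 across these 5 classes. In fibroblasts the one measured row was Pcdhga5 too, called neither way beside 3.7% of genes called higher and 2.43% lower, and endothelial cells (3.55% of genes called higher, 3.55% lower) and microglia or macrophages (3.33% and 5.31%) had no measured row.

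A second question was how many distinct members a single cell showed. Each cell was thinned to 2000 UMIs so that depth was equal, which left out 108 control and 55 Setdb1_cKO neuroblasts with fewer. In neuroblasts the mean number of gamma members per cell was 0.152 in control and 0.540 in Setdb1_cKO, and that of alpha members 0.0295 and 0.0991. At least 1 gamma member was seen in 14.0% (13.0 to 15.0) of control and 41.9% (40.5 to 43.3) of Setdb1_cKO neuroblasts, and at least 2 in 1.17% (0.880 to 1.52) and 10.1% (9.26 to 10.9). For alpha, 2.84% (2.39 to 3.36) and 9.44% (8.65 to 10.3) had at least 1. Without thinning, 34.2% and 81.5% of neuroblasts had a gamma UMI, with up to 5 members in 1 control cell and 10 in 1 Setdb1_cKO cell. Microglia or macrophages, which are not of neural origin, gave the background for UMIs from free RNA: 6.34% and 10.9% of them had a gamma UMI without thinning, with a median of 5266 and 6174 UMIs per cell, beside 5531 and 6665 in neuroblasts.

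The thinned shares were also higher for gamma in Setdb1_cKO in the other 3 neural classes shown. The share with a gamma member was 9.77% (7.04 to 13.1) and 37.1% (30.1 to 44.5) in intermediate progenitors, 14.7% (13.5 to 16.0) and 25.8% (24.0 to 27.7) in radial glia or astrocytes, and 8.75% (6.17 to 12.0) and 19.5% (15.5 to 23.9) in Cajal-Retzius cells. Without thinning these shares were 33.9% and 78.5%, 38.6% and 64.6%, and 35.2% and 57.7%. For alpha the thinned share in glia was 0.154% and 1.06%, beside 0.424% and 1.22% in microglia or macrophages, and in Cajal-Retzius cells 4.25% and 5.41%, where the intervals overlap. Within each library, neuroblasts with and without a gamma member had nearly the same share with an alpha member, 2.89% and 2.83% in control and 10.0% and 9.02% in Setdb1_cKO, so detection in one cluster went little with detection in the other.

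**Figure D4:**
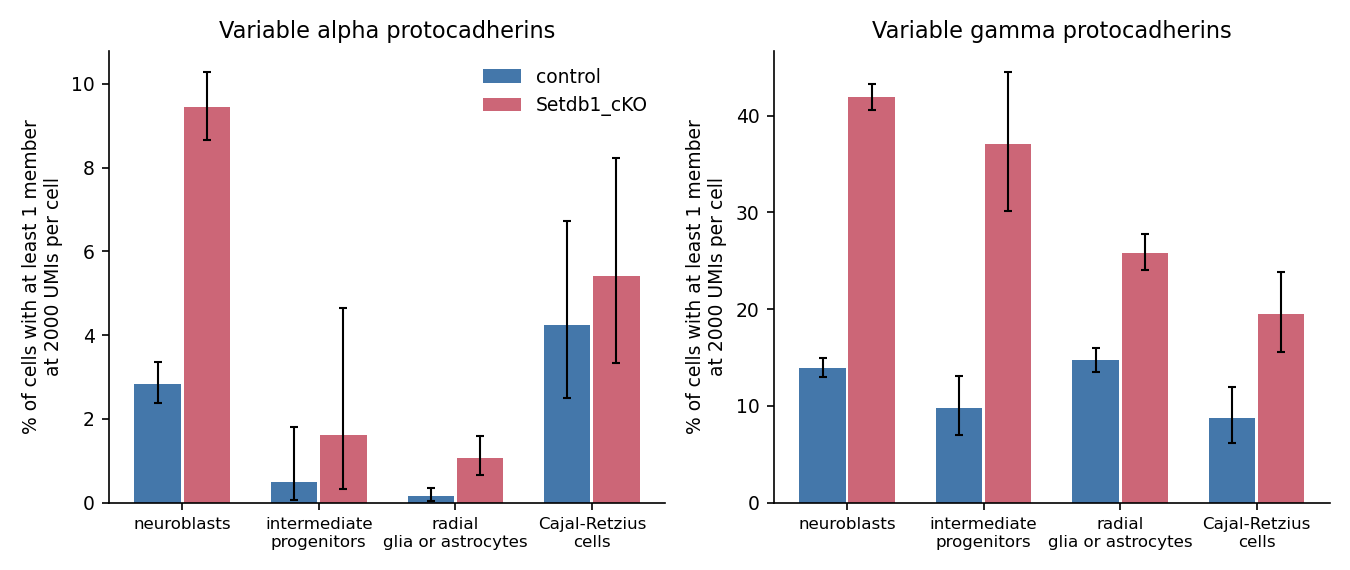
Share of cells in which at least 1 variable alpha (left) or gamma (right) member had a UMI, each cell thinned to 2000 UMIs; bars are libraries and error bars exact Clopper-Pearson 95% intervals. Gamma goes from 14.0% to 41.9% of neuroblasts, and alpha in Cajal-Retzius cells overlaps between the libraries.

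The level and the number of members do not say whether a cell concentrates its UMIs on 1 member. Cells with exactly 2 UMIs of a family were therefore asked whether both were of the same member, and the share was set beside that among pairs of UMIs taken from different cells of the class, which is the share expected when members are spread evenly over cells. In control neuroblasts 137 of 360 such cells, 38.1% (33.0 to 43.3), had both gamma UMIs on 1 member, against 8.69% between cells. In Setdb1_cKO neuroblasts this was 145 of 1123 cells, 12.9% (11.0 to 15.0), against 10.2% between cells. Gamma UMIs were thus strongly concentrated within control cells and close to the between-cell share in Setdb1_cKO cells. Over all pairs of gamma UMIs within a cell, also in cells with more than 2, the shares were 35.1% and 12.0%. The same-member cells in control spread over 15 of the 18 gamma rows, with Pcdhga7 in 34 of them.

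Glia showed the same contrast, with 85 of 304 control cells, 28.0% (23.0 to 33.4), and 48 of 401 Setdb1_cKO cells, 12.0% (8.96 to 15.6), beside 8.81% and 10.1% between cells. Alpha in neuroblasts had 24 of 53 control cells, 45.3% (31.6 to 59.6), and 67 of 301 Setdb1_cKO cells, 22.3% (17.7 to 27.4), beside 14.0% and 12.8%. The second Pcdha11 row made up 32 of those 67. These pairs were counted without thinning. With cells thinned to 4000 UMIs, the alpha shares were 25% of 16 control and 25.2% of 107 Setdb1_cKO cells. The alpha contrast was thus not seen at that equal depth, where control cells were few. Intermediate progenitors (6 of 18 control and 7 of 38 Setdb1_cKO cells) and Cajal-Retzius cells (8 of 28 and 7 of 56) had too few such cells to separate the libraries. The beta genes, measured the same way in neuroblasts, had 33.6% (29.6 to 37.8) in control and 25.1% (22.0 to 28.4) in Setdb1_cKO, beside 7.79% and 7.20% between cells, so that in the Setdb1_cKO library they stayed well above the between-cell share where gamma did not.

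The UMIs counted here can stem from 1 transcript primed at more than 1 place, which adds same-member pairs in both libraries. The share of such pairs need not be equal, as the gamma levels differed between the libraries. Free RNA and unmarked doublets add different-member pairs. The part of each in the contrast was not tested. Scrublet marked 5.15% of control and 6.06% of Setdb1_cKO barcodes as doublets. With doublets kept, or with any of the other sets of cells tried, the gamma share in neuroblasts stayed between 35.2% and 39.7% in control and between 12.6% and 13.6% in Setdb1_cKO. Where the 2 gamma UMIs of a neuroblast were of different members, those were next to each other in the genome in 31 of 223 control cells (13.9%) and 124 of 978 Setdb1_cKO cells (12.7%), beside 12.2% and 11.1% of different-member pairs between cells.

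**Figure D5:**
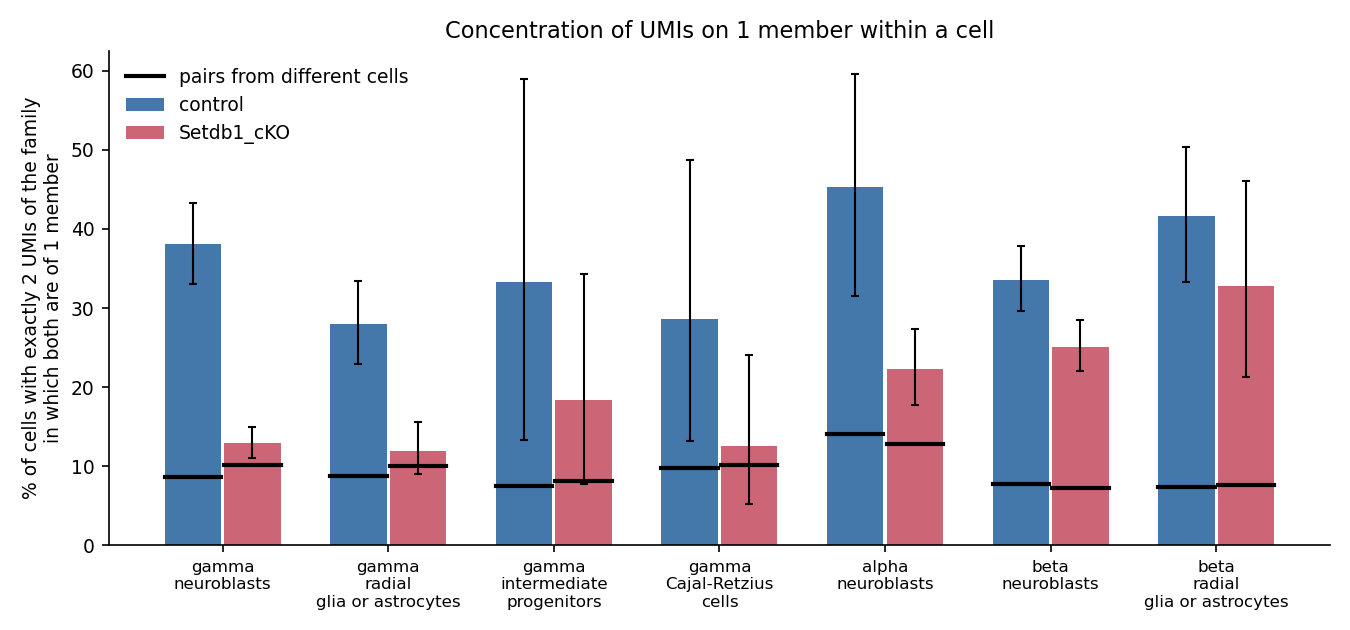
Share of cells with exactly 2 UMIs of a family in which both are of 1 member, by family and class; bars are libraries, error bars exact Clopper-Pearson 95% intervals, and black lines the share among pairs from different cells. For gamma in neuroblasts the control bar is at 38.1% over a line at 8.69%, and the Setdb1_cKO bar at 12.9% over a line at 10.2%.

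Because the neuroblast gate holds cells of different maturity and their proportions differ between the libraries, the levels were also compared within narrower sets, chosen after the data had been seen. In cells without a granule neuron marker at 2000 UMIs (3736 control, 3675 Setdb1_cKO) the alpha ratio was 3.24 (2.90 to 3.64) and the gamma ratio 3.34 (3.17 to 3.52). With 1 marker (943 and 1265 cells) they were 2.50 (2.10 to 2.99) and 3.23 (2.93 to 3.55), and with 2 (37 and 125 cells) 1.65 (0.996 to 2.86) and 3.64 (2.58 to 5.27). Control alpha stood at 16.6, 25.5 and 42.6 CPM in these 3 sets and Setdb1_cKO alpha at 54.0, 63.8 and 70.2 CPM, and gamma stood at 79.1, 82.2 and 80.7 CPM in control and at 264, 265 and 293 CPM in Setdb1_cKO.

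Clusters made without any clustered protocadherin gene were the other check. The 4 largest neuroblast clusters each came almost wholly from 1 library: those led by Cpne9, Sema5a and D030025P21Rik (2170 control and 42 Setdb1_cKO cells) and by Cldn3, Arl4d and Calb2 (1377 and 19) from control, and those led by Gal, Cpne9 and Syt2 (16 and 1611) and by Samd12, Nhlh1 and Calb2 (22 and 1297) from Setdb1_cKO. A glial cluster led by Abca8a, Rhcg and Slc14a1 (25 and 1012 cells) was of the same kind. For these the library and the cell state cannot be told apart, and only clusters with at least 50 cells of both libraries were compared. In the cluster led by C1ql3, Calb1 and Dsp (75 control and 972 Setdb1_cKO cells) the alpha ratio was 2.57 (1.59 to 4.44) and the gamma ratio 3.62 (2.76 to 4.85). In the cluster led by Rprml, Chodl and Syt4 (176 and 544 cells) both were smaller, 1.76 (1.48 to 2.11) and 2.24 (1.96 to 2.56), and its control alpha level of 46.8 CPM was the highest of the clusters compared. In the cluster led by Tac2, Myo1a and Mfap4, with Eomes (760 and 496 cells), they were 2.87 (1.92 to 4.37) and 3.93 (3.48 to 4.44). Among glial clusters, the one led by Glycam1, Myoc and Pla2g3 (1202 and 600 cells) had a gamma ratio of 1.57 (1.42 to 1.73) and the one led by Wnt8b, Gdf10 and Gas1 (1163 and 109 cells) 1.33 (1.06 to 1.66). Larger gamma ratios stood in the cluster led by Olig2, Olig1 and Egfr (2.34, 1.91 to 2.87), in that led by Gm11627, Fabp7 and Car2 (2.52, 1.41 to 4.54), and in 3 clusters led by cell cycle genes that also held intermediate progenitors and neuroblasts, with 2.65 (2.25 to 3.12) for the one led by Ung and Cdc6, 3.17 (2.66 to 3.79) for that led by Hist1h1b and Hist1h2ap, and 3.97 (3.33 to 4.73) for that led by Cdc20 and Cenpa. The glial gamma ratio of 1.88 thus covers clusters that differ beyond counting error.

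Other transcripts of the locus were at unequal ratios in neuroblasts. Pcdhgc3, a C-type isoform at the 3' end of the gamma cluster that shares its constant exons, was at 605 UMIs (20.7 CPM) in control and 73 (1.76 CPM) in Setdb1_cKO, 0.0849 (0.0657 to 0.108), opposite to the variable rows upstream of it. In glia it was called neither way, and Pcdhgc5 was at 5.71 and 12.2 CPM there (2.14, 1.71 to 2.68). Gm26672, annotated on the reverse strand across Pcdhga10, Pcdhgb7, Pcdhga11 and Pcdhga12, was at 206 and 960 UMIs in neuroblasts (3.28, 2.82 to 3.83), and Gm10545, across the second Pcdha11 row and Pcdha12, at 30 and 142 (3.33, 2.23 to 5.12). As these genes overlap members on the opposite strand, their counts are separate only if the counting used strand. The noncoding RNA 3222401L13Rik, which ends just upstream of Pcdhga1 and was picked after its values were seen, was at 209 and 6560 UMIs (22.1, 19.2 to 25.5), while Pcdhga1 itself was at 56 and 81 UMIs.

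Of 20 genes known for promoter choice and silencing of the clusters (CTCF, cohesin, DNA methylation and H3K9 methylation genes), all 20 were measured in neuroblasts, 1 was called higher and 1 lower, beside 9.5% and 7.49% of all measured genes. Their median log2 ratio was -0.13. The lower one was Setdb1 and the higher one Atf7ip, whose protein binds and stabilises SETDB1, at 115 and 284 CPM (2.48, 2.39 to 2.58). In glia, beside 5.75% and 4.26% of all genes, Atf7ip was again the one called higher, and Setdb1 and Dnmt3b, a de novo DNA methyltransferase, were called lower, Dnmt3b at 3.36 and 2.03 CPM (0.606, 0.396 to 0.911). Of 18 genes for cytoplasmic and membrane partners of the proteins, in neuroblasts 3 were called higher and 0 lower, and the median log2 ratio was 0.05; against the 9.5% and 7.49% of all genes neither list count stands out. The 3 were Prkca, a protein kinase C, at 38.8 and 74.8 CPM (1.93, 1.80 to 2.07), the postsynaptic adhesion gene Nlgn1 at 1.54 (1.45 to 1.63) and the receptor kinase gene Ret at 14 and 41 UMIs (2.06, 1.10 to 4.09). In glia 0 of 16 measured partner genes were called either way.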

How the data were processed

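The deposited matrices held raw UMI counts, which the authors had not normalised, made with Cell Ranger 7.1.0 on mm10, per the submitters' processing notes, from 10x 3' v3 libraries, per the labels. The lowest barcode held 500 UMIs, and the libraries held 82393428 and 87845965 UMIs. Cells needed 1000 UMIs, 500 genes and a mitochondrial share of 10% or less, and Scrublet doublets (scanpy 1.11.5, expected rate 8%) were removed. The marker gate left 6.75% of control and 5.96% of Setdb1_cKO cells without a class. Of the 14 classes, 8 with at least 50 cells in both libraries were compared. UMIs were summed per class and library and divided by the class total (CPM). Intervals of ratios are exact conditional Poisson ones, those of shares exact Clopper-Pearson. The calls were checked on simulated counts. Alternative clusters used 2000 variable genes without clustered protocadherins, 30 principal components, 20 neighbours and Leiden resolution 1. Members, lists and markers were chosen with earlier results of these data known. Any member could be named, as could Setdb1, called genes of the lists and genes that overlap a member. Coordinates and exons came from the annotation of the same assembly, by Ensembl identifier. No member sequence is printed.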

Additional observations from a re-analysis of the deposited data

Results flagged for a closer look

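The variable beta protocadherins were on opposite sides of 1 in different classes, each with an interval without 1. Their Setdb1_cKO to control ratio was 0.693 (0.622 to 0.771) in radial glia or astrocytes and 0.806 (0.662 to 0.979) in Cajal-Retzius cells, beside 1.68 in neuroblasts, 1.32 (1.01 to 1.72) in intermediate progenitors and 2.32 (1.11 to 5.33) in microglia or macrophages. With 1 library per genotype the difference between classes was not tested. No variable alpha or gamma family was on opposite sides of 1 in this way, and no measured member was called higher in 1 class and lower in another. The lowest log2 ratio of a gamma row in glia was -0.477, and no gamma row was called lower there in the main setting.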

How the results depend on the processing

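No paired analysis was possible because each genotype had 1 library. In neuroblasts the alpha ratio stayed between 2.86 and 3.22 and the gamma ratio between 3.26 and 3.47 over the alternative totals, filters, gates and classes, and 24 to 26 members were called higher; in glia the gamma ratio stayed between 1.84 and 2.23 and 9 to 16 members were called higher. Results on few UMIs moved, and the cause was not tested. In Cajal-Retzius cells the alpha ratio passed its interval test with totals without mitochondrial, ribosomal protein and haemoglobin genes (1.36), with the stricter cell filter (1.42), with clusters (1.37) and for unthinned isoforms per cell (1.57). With at least 10 UMIs, 10 of 23 measured members were called higher there, without a share of all genes at that threshold. In intermediate progenitors the alpha ratio lost its call with the stricter filter (2.10) and without the 1% of cells with most member UMIs (2.47), was 0.559 on 5 UMIs with a lead of 2 markers, where 1 member was called higher, and was 3.23 for unthinned isoforms; no cluster took this class. In glia 1 member was called lower with a lead of 2 markers and without the 1% of cells. With at least 2 UMIs of a member, isoforms per cell gave ratios of 1.86 (neuroblast alpha) and 1.60 (glial gamma), both with intervals that held 1. At 4000 UMIs per cell, 25% (7.27 to 52.4) of 16 control neuroblasts with 2 alpha UMIs had both on 1 member. In Setdb1_cKO this was 25.2% (17.3 to 34.6) of 107. The intervals overlap, and 16 control cells are too few to show whether the libraries differ there. Leaving out those 1% of cells, the maturity sets and the clusters taken singly (alpha 1.65 to 3.24 and gamma 2.24 to 3.93 in neuroblasts, given above) and the alternatives for pairs were chosen after seeing the data. Leaving out a replicate was not possible.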
